A study of Schizosaccharomyces pombe with 8 samples.

Results

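The response of wild-type fission yeast, Schizosaccharomyces pombe, to hydrogen peroxide (H2O2) was described across its nuclear protein-coding genes. Members were genes whose identifier carries a nuclear cosmid or plasmid prefix (SPAC, SPAP, SPBC, SPBP, SPCC or SPCP), that RefSeq lists as protein-coding, and whose mean over the 4 pools of the study was at least 1 FPKM (fragments per kilobase of transcript, scaled to the mapped fragments of the library). These were 4949 of the 7092 genes in the files, and of 5106 nuclear coding genes at any level. The treated pool came from cells of genotype h- leu1-32 ura4-D18 held for 15 min in 20 mM H2O2, and the untreated pool from the same strain without peroxide. Both were grown to mid-log phase in YES, a rich yeast extract medium. Each pool combined 2 libraries, which the study's design text calls biological replicates. The other pair of pools in the series came from h- wee1::ura4+ leu-32 ura4-D18 cells, again with and without H2O2. It is used here only to ask whether a wild-type change was also seen there, and whether the response of a gene differed between the strains.

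At high doses H2O2 oxidises proteins, lipids and DNA, and fission yeast answers by redirecting transcription within minutes. A stress-activated MAP kinase, Sty1, acts through the transcription factor Atf1. A redox-sensitive factor, Pap1, drives antioxidant and drug-efflux genes when it accumulates in the nucleus, which was not measured here. The catalase, peroxiredoxin and thioredoxin genes of this response are its best known part. The description below concerns the rest of the coding genes.

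The deposited files hold 1 FPKM value per gene and pool, so no spread between libraries can be shown and read depth is unknown. A change is the log2 ratio of FPKM + 1 in treated over untreated cells. The ± beside a ratio is a standard error worked out from the fold change and test statistic in the authors' deposited table. The words rose, fell and called are used only where the authors' deposited table gives a q-value under 0.05. The values are means over a culture, so a change in every cell and a larger change in some cells cannot be told apart.

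The pools differed in more than their coding transcripts. Ribosomal RNA genes held 22.2% of all summed FPKM in treated wild type and 3.13% in untreated wild type, and coding genes held 73.2% and 95.1%. Summed coding FPKM was higher in treated cells by 0.25 on the log2 scale, and FPKM has no fixed total. The cause was not tested. In the pools labelled ∆wee1 the rRNA share moved the other way, with 3.19% after H2O2 and 10.9% untreated. The wee1 transcript stood at 15.5 FPKM after H2O2 and 16.1 FPKM untreated under the deletion label, against 8.17 FPKM in treated and 8.91 FPKM in untreated wild type, which goes against that label. The marker ura4, which replaces wee1 there, stood at 235 FPKM after H2O2 and 185 FPKM untreated, against 0.0704 FPKM in treated and 0.131 FPKM in untreated wild type, which goes with the label. The mutant pools are therefore called the pools labelled ∆wee1.

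Of the 4928 coding genes that the authors' deposited table tested, 318 rose and 451 fell, together 15.6%, against 14.4% of the 6277 genes of every kind. The shares by direction were 6.45% and 9.15%, and the lists of genes below are read against these. Most called changes were modest. The rises reached 2-fold in 95 genes (1.93% of those tested) and the falls in 86 (1.75%), and the median ratio was 0.75 among genes that rose and -0.69 among genes that fell. Over all coding genes the median was -0.03, and the 25th and 75th percentiles were -0.30 and 0.22. At the edge of the level rule, mpf1 was just inside with a mean of 1.0005 FPKM (0.299 FPKM treated, 0.791 FPKM untreated), and SPAC683.03 just outside with 0.997 FPKM (0.412 FPKM treated, 0.374 FPKM untreated).

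**Figure D1:**
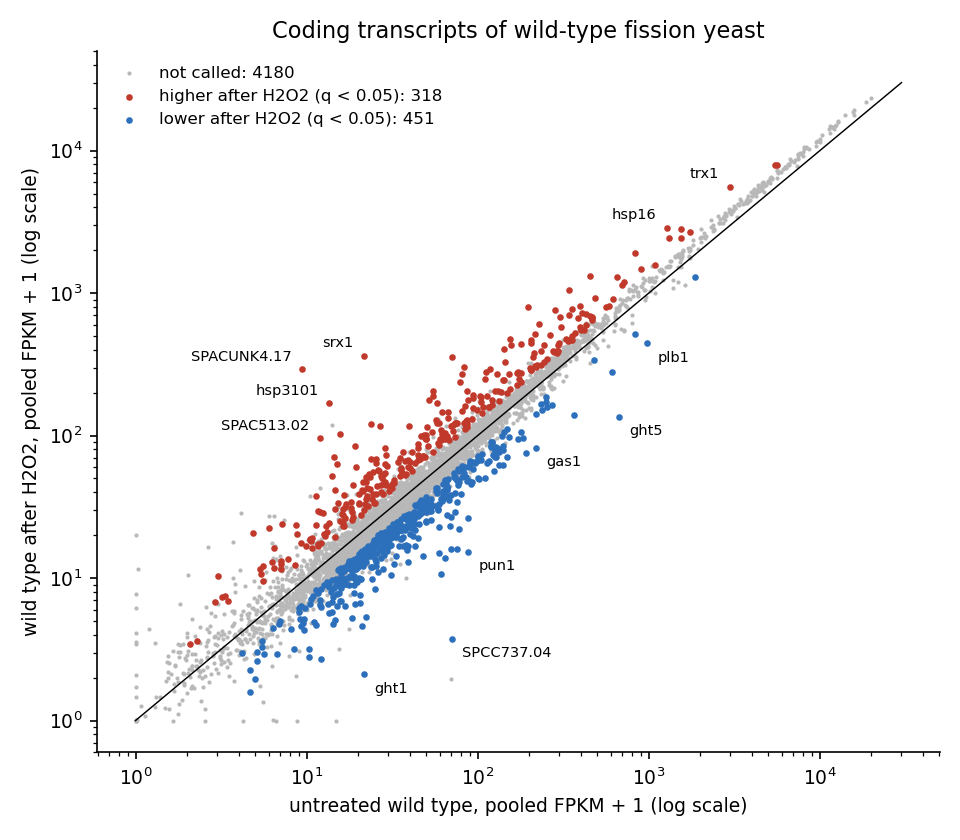
Pooled FPKM + 1 of each coding gene in treated wild type (vertical axis, log scale) against untreated wild type (horizontal axis, log scale), with the line of equal level. Red points are the 318 genes called higher after H2O2 and blue points the 451 called lower. SPACUNK4.17 and srx1 lie farthest above the line among the called genes, and SPCC737.04 and ght1 farthest below.

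The genes that rose most, outside the known antioxidant genes, included many enzymes of small molecules such as sugars and aldehydes, and most had no gene name. Among the 25 largest rises, 16 genes had no symbol in the files and 6 were listed by RefSeq as uncharacterized. Among the 25 largest falls these counts were 10 and 4. A symbol was also lacking for 108 of the 318 genes that rose and for 1287 of the 4949 coding genes. The largest rise of any coding gene was that of SPACUNK4.17, a member of a NAD-binding dehydrogenase family (chromosome I, 2872778 to 2874687, minus strand). It had 293 FPKM in treated and 8.37 FPKM in untreated cells, a ratio of 4.97 ± 0.49. For comparison the sulfiredoxin gene srx1, the largest classic rise, had a ratio of 4.07 ± 0.72. The q-value of SPACUNK4.17 in the authors' deposited table was 0.000819, the lowest that table gives for this comparison, and each gene below has that value unless another is stated.

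Next came hsp3101 (SPCC757.03c, chromosome III, 47325 to 48577), with 168 FPKM treated and 12.6 FPKM untreated (3.64 ± 0.40). It encodes a glyoxalase III, an enzyme that turns the toxic sugar by-product methylglyoxal into lactate without glutathione. SPAC513.02, of the phosphoglycerate mutase family (chromosome I, 2911289 to 2912543), had 95.2 FPKM treated and 10.9 FPKM untreated (3.02 ± 0.27). SPCC1442.07c, which joins a ubiquitin-like part to a metalloprotease, had 102 FPKM treated and 14.6 FPKM untreated (2.73 ± 0.74, q = 0.00336 in the authors' deposited table). These 4 genes stood at 8.37 to 14.6 FPKM in untreated cells and above 95 FPKM after H2O2, and each also rose in the pools labelled ∆wee1.

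Several further rises were of sugar alcohol and aldehyde enzymes. The hexitol dehydrogenase gene tms1 (SPBC1773.05c) had 119 FPKM treated and 22.9 FPKM untreated (2.33 ± 0.48). SPAC2F3.05c, a xylose and arabinose reductase (chromosome I, 3928625 to 3929950), had 353 FPKM treated and 69.8 FPKM untreated (2.32 ± 0.21). SPAC139.05, a succinate-semialdehyde dehydrogenase, had 62.0 FPKM treated and 14 FPKM untreated (2.07 ± 0.38). These enzymes use a nicotinamide cofactor to oxidise or reduce alcohols and aldehydes.

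Other large rises were of genes with unrelated roles or none known. The gene mug35 had 303 FPKM treated and 82.2 FPKM untreated (1.87 ± 0.37), and the uncharacterized gene SPAPB1A10.05 had 205 FPKM treated and 53.5 FPKM untreated (1.91 ± 0.31). The vitamin B6 importer bsu1 had 19.6 FPKM treated and 3.86 FPKM untreated (2.09 ± 0.26). The gene that RefSeq names Ddr48, after a DNA damage-responsive gene of budding yeast (SPAC23H3.15c), had 797 FPKM treated and 197 FPKM untreated (2.01 ± 0.28). The RNA helicase gene dbp2 had 176 FPKM treated and 50.9 FPKM untreated (1.77 ± 0.21), and zpr1, whose product binds translation elongation factor 1 alpha, had 479 FPKM treated and 153 FPKM untreated (1.64 ± 0.22). The uncharacterized gene SPBC11C11.06c had the highest treated level among these 25, with 1045 FPKM treated and 342 FPKM untreated (1.61 ± 0.22). All but 1 of the 25 were also called higher in the pools labelled ∆wee1, the exception being the agmatinase gene SPAC11D3.09 (1.74 ± 0.50 in wild type, 0.77 there).

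**Figure D2:**
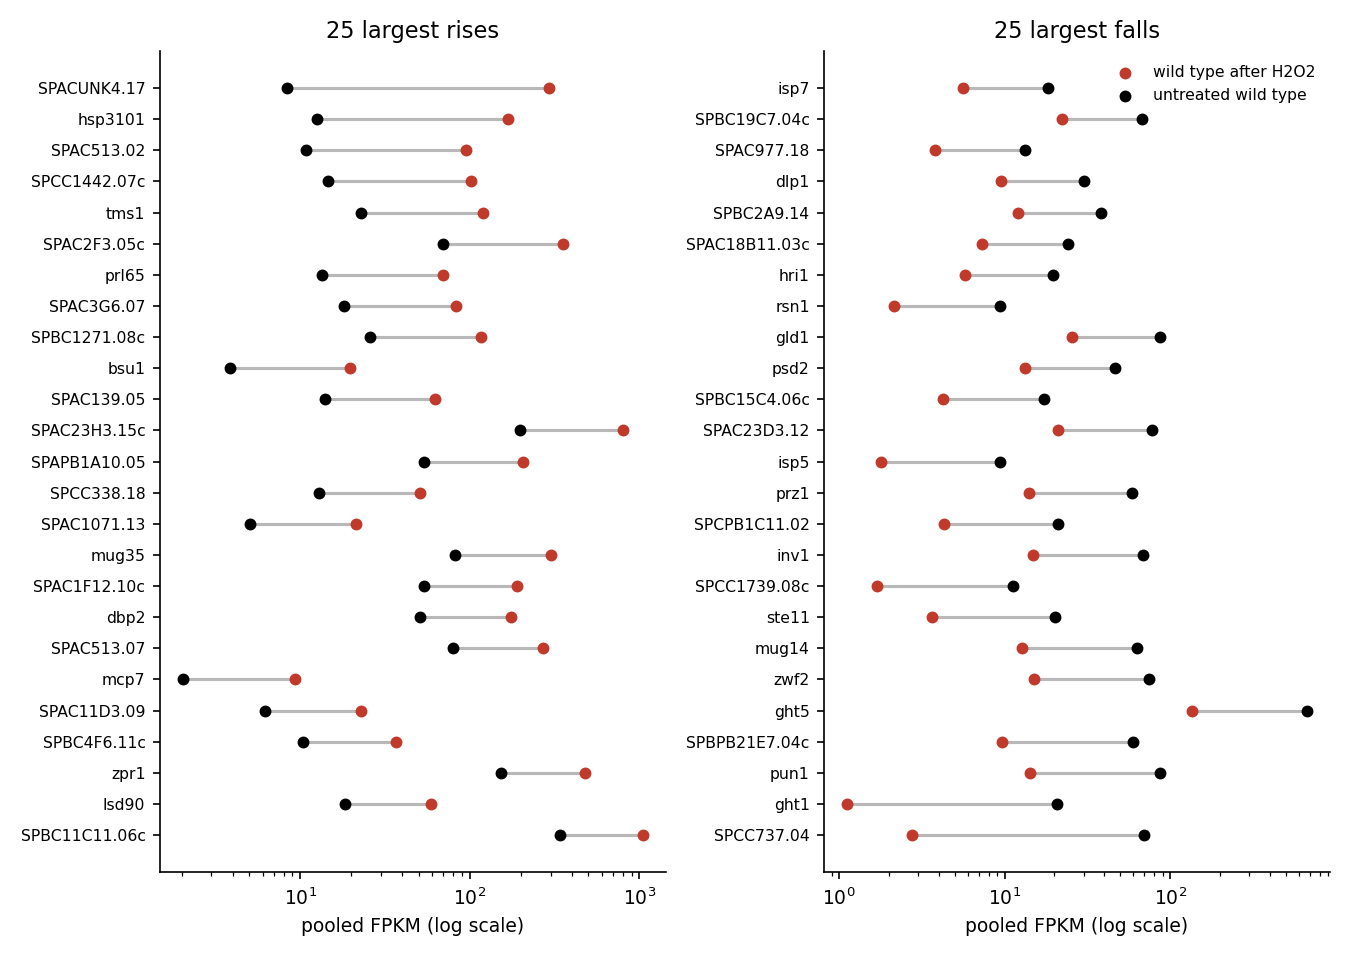
Pooled FPKM (log scale) of the 25 largest rises (left panel) and 25 largest falls (right panel) among called coding genes outside the classic antioxidant list, with treated wild type in red and untreated wild type in black. The bars join the values of a gene, from SPACUNK4.17 with 293 FPKM treated and 8.37 FPKM untreated to SPCC737.04 with 2.76 FPKM treated and 69.8 FPKM untreated.

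The DNA before these genes is shown because Atf1 and Pap1 bind short known letters. The windows are the 250 bases before the RefSeq gene start (ASM294v3), written along the gene's strand. The motifs searched on both strands were TGACGT, the short core of the Atf1 site (which reads ACGTCA on the other strand), and TTACTAA or TTAGTCA for Pap1 (TTAGTAA and TGACTAA on the other strand). The Atf1 and Pap1 motifs do not overlap in the windows shown. Capitals mark them. Gene models in the files start earlier, so these windows hold part of the model, and that of SPAC513.07 lies wholly inside it. Shown are the largest rise and those 4 of the 25 largest rises whose window held the Atf1 core.
SPACUNK4.17, chrI:2874580-2874829, minus strand: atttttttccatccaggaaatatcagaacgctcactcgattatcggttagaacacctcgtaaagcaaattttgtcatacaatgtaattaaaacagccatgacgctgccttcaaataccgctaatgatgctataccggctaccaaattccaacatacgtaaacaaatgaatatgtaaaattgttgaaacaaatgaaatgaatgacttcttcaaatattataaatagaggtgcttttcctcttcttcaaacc
SPAC3G6.07, chrI:5391975-5392224, plus strand: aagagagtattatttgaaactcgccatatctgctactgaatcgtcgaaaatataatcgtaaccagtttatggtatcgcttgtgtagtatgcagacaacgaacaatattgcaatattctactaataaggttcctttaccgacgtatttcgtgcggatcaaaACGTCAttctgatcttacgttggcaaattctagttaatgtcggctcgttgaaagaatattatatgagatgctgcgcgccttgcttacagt
SPAC1F12.10c, chrI:3821465-3821714, minus strand: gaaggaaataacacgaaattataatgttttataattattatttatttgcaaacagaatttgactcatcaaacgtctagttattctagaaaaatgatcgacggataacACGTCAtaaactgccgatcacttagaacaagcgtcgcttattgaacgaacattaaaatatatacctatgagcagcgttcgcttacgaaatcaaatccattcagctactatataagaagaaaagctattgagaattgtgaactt
SPAC513.07, chrI:2921256-2921505, plus strand: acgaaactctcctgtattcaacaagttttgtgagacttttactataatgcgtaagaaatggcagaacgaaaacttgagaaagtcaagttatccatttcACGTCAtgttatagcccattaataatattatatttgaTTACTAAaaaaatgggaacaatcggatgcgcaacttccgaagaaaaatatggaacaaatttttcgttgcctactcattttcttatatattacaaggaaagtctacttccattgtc
SPBC11C11.06c, chrII:3359973-3360222, minus strand: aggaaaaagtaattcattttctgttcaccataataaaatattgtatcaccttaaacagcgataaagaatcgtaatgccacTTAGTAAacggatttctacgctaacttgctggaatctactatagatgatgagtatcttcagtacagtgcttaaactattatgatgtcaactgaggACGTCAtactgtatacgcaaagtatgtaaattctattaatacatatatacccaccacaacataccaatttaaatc

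The window of SPACUNK4.17 holds neither motif. SPAC3G6.07, an uncharacterized gene, had 83.4 FPKM treated and 18.1 FPKM untreated (2.14 ± 0.31), and its Atf1 core begins 90 bases before the start. SPAC1F12.10c, an NADPH-hemoprotein reductase, had 189 FPKM treated and 53.9 FPKM untreated (1.79 ± 0.24), with the core at 143 bases. SPAC513.07, of a flavonol and cinnamoyl-CoA reductase family, had 271 FPKM treated and 79.5 FPKM untreated (1.76 ± 0.26). In the 250-base windows the Atf1 core occurred before 16.0% of the 25 largest rises and 5.52% of all coding genes, and a Pap1 motif before 20.0% and 14.1%.

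In the wider window of 250 bases before to 50 after the start, 13.2% of the 318 genes that rose, 18.9% of those that rose at least 2-fold and 5.88% of all coding genes held the Atf1 core. The Pap1 motifs were in 20.4%, 21.1% and 16.0% of the same groups. Other motifs had higher or lower shares among the 451 genes that fell than among all coding genes. AGCCTC, a core of the calcineurin-responsive factor Prz1, was before 8.65% of genes that fell and 4.69% of all. The forkhead letters GTAAACA were before 25.7% and 16.4%, and before 19.8% of genes that fell at least 2-fold. CAGTCAC, the HomolD box, was before 1.55% of genes that fell and 4.85% of all. Among genes that rose, a heat shock element was before 1.89% (6 genes), against 0.465% of all (23 genes). It was before 1 of the 95 genes that rose at least 2-fold. CCCCTC, the STREP element, was before 8.14% of genes that fell at least 2-fold, 2.88% of all that fell and 2.14% of all coding genes. These shares describe letters in a window and say nothing of binding.

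Many rises were of enzymes that act on aldehydes, ketones and quinones. Of 59 measured redox and carbonyl enzymes outside the classic list, 19 rose and 4 fell (32.2% and 6.78% of the list), with a median ratio of 0.24, against -0.03 over all coding genes. Beside SPAC2F3.05c, SPAC139.05 and SPAC513.07, the named rises were etr1 and ero11. The enoyl reductase gene etr1 of mitochondrial fatty acid synthesis had 169 FPKM treated and 56.6 FPKM untreated (1.56 ± 0.66, q = 0.024 in the authors' deposited table). The gene ero11 encodes an oxidase of the endoplasmic reticulum (ER) that makes disulfide bonds, and had 205 FPKM treated and 85.4 FPKM untreated (1.26 ± 0.27). The largest falls in this list were SPCC1739.08c, a dehydrogenase (-2.17 ± 0.66, q = 0.0489 in the authors' deposited table), and gld1, the glycerol dehydrogenase, with 25.6 FPKM treated and 87.2 FPKM untreated (-1.73 ± 0.32).

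The DJ-1 family had the highest median of the lists. DJ-1 is a human protein linked to Parkinson's disease, and its yeast relatives include glyoxalases. All 6 measured members had a ratio above 0, from 0.14 to 3.64 with a median of 1.18, and 3 of them rose. After hsp3101, hsp3104 had 406 FPKM treated and 141 FPKM untreated (1.52 ± 0.23), and hsp3103 had 49.6 FPKM treated and 26.5 FPKM untreated (0.88 ± 0.22).

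Multidrug exporters, membrane pumps that eject toxic compounds, showed 4 rises and no fall among 18 members (22.2%). The rises were mfs1 (115 FPKM treated, 38.6 FPKM untreated, 1.55 ± 0.23), caf5 (28.3 FPKM treated, 10.9 FPKM untreated, 1.30 ± 0.25), pdr1 (16.5 FPKM treated, 8.26 FPKM untreated, 0.92 ± 0.21) and bfr1 (29.4 FPKM treated, 15.3 FPKM untreated, 0.90 ± 0.20). The other 14 exporters were not called, and the median of the list was 0.14.

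Iron-sulfur cluster and haem genes split. Of 18, 4 rose and 1 fell (22.2% and 5.56%), with a median of -0.14. The scaffold gene isu1, on which clusters are built, had 328 FPKM treated and 143 FPKM untreated (1.19 ± 0.28). The cluster targeting gene cia2 had 28.7 FPKM treated and 10.7 FPKM untreated (1.34 ± 0.42), and isd11, a partner of the sulfur donor, had 164 FPKM treated and 120 FPKM untreated (0.45 ± 0.23, q = 0.048 in the authors' deposited table). In the other direction isa1, another assembly factor, had 105 FPKM treated and 142 FPKM untreated (-0.42 ± 0.21, q = 0.034 in the authors' deposited table).

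The list with the most rises was that of machinery that makes ribosomes. Of 93 measured genes for ribosomal RNA processing and ribosome assembly, 31 rose and none fell (33.3%), 62 were not called, 85 had a ratio above 0, and the median was 0.34. The U3 particle gene imp4, which acts in early cleavage of the rRNA precursor, led with 67.9 FPKM treated and 22.8 FPKM untreated (1.53 ± 0.25). The assembly factor genes rrb1, enp2, nop16 and mak16 followed with ratios of 1.02 to 1.13, and the kinase gene rio1 had 1.06 ± 0.49 (q = 0.0253 in the authors' deposited table). The share of rRNA itself, given above, was also higher in this treated pool, and its part in these ratios was not tested. In the pools labelled ∆wee1, where the rRNA share was lower after H2O2, 10 of the 93 rose, none fell and the median was 0.15.

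Other genes of translation, transcription and splicing had few calls or none. No translation initiation or elongation factor of 38 was called in either direction, with ratios from -0.28 to 0.46, 35 of them above 0, and a median of 0.20, and tef3, elongation factor 3, had 1278 FPKM treated and 930.3 FPKM untreated (0.46 ± 0.28, q = 0.117 in the authors' deposited table). Of 31 subunits and factors of RNA polymerases I and III, 3 rose (9.68%, against 6.45% of all coding genes). These were ker1 (0.73 ± 0.35), rpc34 (0.58 ± 0.23) and rpa12 (0.43 ± 0.21), with q-values of 0.0363, 0.00393 and 0.0274 in the authors' deposited table. Of 36 aminoacyl-tRNA synthetases, which charge tRNAs with amino acids, none rose and 3 fell (8.33%, near the background of 9.15%). The falls were dar2, SPAC24C9.09 and ism1, with ratios of -0.80, -0.74 and -0.43 and q-values of 0.0428, 0.0028 and 0.0414 in the authors' deposited table. Of 83 splicing factors 5 rose and 3 fell (6.02% and 3.61%). The share of rises was near the background of 6.45%, and that of falls was below the background of 9.15%.

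Protein folding helpers were also among the rises. Among 34 heat shock proteins and co-chaperones 10 rose and none fell (29.4%). The nucleotide exchange factor gene fes1, which resets Hsp70, had 606 FPKM treated and 228 FPKM untreated (1.41 ± 0.24). The Hsp90 helpers cdc37 (1.24 ± 0.44, q = 0.0028 in the authors' deposited table) and sti1 (1.04 ± 0.24), the DnaJ protein gene psi1 (1.19 ± 0.23) and the small heat shock genes hsp16 and SPCC338.06c (both 1.18) rose with it. Of 33 mitochondrial import genes 4 rose and 1 fell (12.1% and 3.03%). Among the rises were the matrix disaggregase Hsp78 (SPBC4F6.17c, 0.65 ± 0.21) and the DnaJ gene mdj1 (0.62 ± 0.27, q = 0.00888 in the authors' deposited table). The insertase gene oxa102 fell (-1.22 ± 0.24). Of 24 ER folding genes ero11 and calnexin (cnx1, 0.46 ± 0.24, q = 0.0422 in the authors' deposited table) rose (8.33%, against 6.45% of all coding genes), and the median was -0.08.

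Rises among regulators were few and of several kinds. The tyrosine phosphatase gene pyp2, whose product switches off Sty1, had 63.7 FPKM treated and 24.3 FPKM untreated (1.35 ± 0.29), and its relative pyp3 had 58.6 FPKM treated and 39.0 FPKM untreated (0.57 ± 0.22, q = 0.0028 in the authors' deposited table). Of 28 protein phosphatase genes these 2 rose and 3 fell (7.14% and 10.7%, against 6.45% and 9.15% of all coding genes). The falls were ssu72 (-0.78 ± 0.28), cdc25 (-0.74 ± 0.22) and clp1 (-0.71 ± 0.27), with q-values of 0.00153, 0.000819 and 0.00336 in the authors' deposited table. The histone demethylase gene jmj1 had 44.3 FPKM treated and 17.8 FPKM untreated (1.27 ± 0.24). The general transcription factor genes sua7 (TFIIB, 0.68 ± 0.24) and tbp1 (TATA-binding protein, 0.50 ± 0.21) rose, with q-values of 0.00217 and 0.00447 in the authors' deposited table. They were the only rises among 47 RNA polymerase II and Mediator genes, of which 3 fell (4.26% and 6.38%), and the median was -0.12. The falls were taf2 (-0.57 ± 0.22), taf73 (-0.45 ± 0.24) and taf12 (-0.43 ± 0.21), with q-values of 0.00217, 0.0473 and 0.0316 in the authors' deposited table. The trehalase gene ntp1, which breaks down the storage sugar trehalose, had 187 FPKM treated and 104 FPKM untreated (0.84 ± 0.30, q = 0.00153 in the authors' deposited table).

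In absolute terms the treated pool gained most from genes that were already abundant. Among the 10 largest gains in FPKM of called genes, those outside the classic list were the ribosomal protein genes rpl4102, rpl4101 and rps3001 (q = 0.0352, 0.023 and 0.0133 in the authors' deposited table), hsp16, SPBC21C3.19 and tam11. The SBDS family gene SPBC21C3.19 had 1907 FPKM treated and 825 FPKM untreated (1.21 ± 0.23), and tam11 had 1324 FPKM treated and 452 FPKM untreated (1.55 ± 0.48, q = 0.00217 in the authors' deposited table). Both were also called higher in the pools labelled ∆wee1.

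The falls were led by an uncharacterized gene and by genes for sugar uptake. SPCC737.04 (chromosome III, 1891328 to 1893817) had 2.76 FPKM treated and 69.8 FPKM untreated (-4.24 ± 0.97, q = 0.0145 in the authors' deposited table). Of 22 genes for sugar uptake and glucose-repressed functions 13 fell and 2 rose (61.9% and 9.52% of those tested), with a median of -0.69. The glucose carrier gene ght1 had 1.12 FPKM treated and 20.6 FPKM untreated (-3.34 ± 0.44). The main high-affinity carrier gene ght5 had 135 FPKM treated and 669.7 FPKM untreated (-2.30 ± 0.22). Fission yeast switches such genes on when glucose runs low. Not every hexose carrier gene fell. The gene ght2, named after its values were seen, rose, with a log2 fold change of 0.98 in the authors' deposited table.

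Enzymes of sugar use in the same list also fell. The secreted invertase gene inv1, which splits sucrose, had 14.9 FPKM treated and 68.8 FPKM untreated (-2.14 ± 0.24). The galactose enzyme gene gal10 had 6.56 FPKM treated and 19.6 FPKM untreated (-1.45 ± 0.35), and zwf2, a form of glucose-6-phosphate dehydrogenase, had 15.0 FPKM treated and 74.6 FPKM untreated (-2.24 ± 0.25). Another gene for this enzyme, zwf1, named after its values were seen, went the other way. It rose, with a log2 fold change of 0.74 in the authors' deposited table. The invertase gene and zwf2 also fell in the pools labelled ∆wee1, while gal10 had a ratio of -0.23 there and was not called.

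Many falls were of genes for the cell wall and surface. Of 39 cell wall genes 12 fell and 2 rose (30.8% and 5.13%), with a median of -0.38. The gene pun1, of the SUR7 family of cell cortex membrane proteins, had 14.3 FPKM treated and 86.7 FPKM untreated (-2.52 ± 0.37). The transferase gene gas1, which extends the main wall polymer 1,3-beta-glucan, had 81.3 FPKM treated and 218 FPKM untreated (-1.42 ± 0.21). The surface protein gene adg1 had 74.6 FPKM treated and 191 FPKM untreated (-1.34 ± 0.26), and SPAC11G7.01, the wall sensor Mtl2, had 15.8 FPKM treated and 35.5 FPKM untreated (-1.12 ± 0.21). The exceptions that rose included psu1, a beta-glucosidase, with 60.1 FPKM treated and 28.4 FPKM untreated (1.06 ± 0.22).

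Synthesis of the GPI anchor, the glycolipid that holds many wall proteins to the membrane, had falls at several steps. This list was written after values of its members had been seen, so its count is a description only. Of 26 genes 10 fell and 1 rose (38.5% and 3.85%), with a median of -0.33. The first step, transfer of the sugar to the lipid, is represented by gpi15 (4.64 FPKM treated, 12.6 FPKM untreated, -1.27 ± 0.46, q = 0.0137 in the authors' deposited table) and gpi2 (9.05 FPKM treated, 19.2 FPKM untreated, -1.01 ± 0.29). Later come gpi10 and gpi13, which add mannose and ethanolamine phosphate (-0.81 and -1.07, q = 0.0173 and 0.00498 in the authors' deposited table). The transamidase gene gaa1, which joins the anchor to the protein, had 9.99 FPKM treated and 25.1 FPKM untreated (-1.25 ± 0.39). The remodelling gene bst1, which trims the finished anchor, had 8.84 FPKM treated and 23.2 FPKM untreated (-1.30 ± 0.37). In the pools labelled ∆wee1 the median of the list was -0.30, with 3 falls and 1 rise.

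Lipid genes that fell included genes of sterol and phospholipid metabolism. Of 47 lipid genes 9 fell and none rose (19.1%), although the median was -0.04. Ergosterol, the membrane sterol of fungi, is made through erg1, erg11 and erg31. Squalene monooxygenase (erg1) had 69.5 FPKM treated and 147 FPKM untreated (-1.07 ± 0.21). The sterol demethylase gene erg11, the target of azole drugs, had 93.3 FPKM treated and 171 FPKM untreated (-0.87 ± 0.21), and the desaturase gene erg31 had 61.2 FPKM treated and 140 FPKM untreated (-1.18 ± 0.21). All 3 use molecular oxygen and all 3 also fell in the pools labelled ∆wee1. The largest fall in the list was that of psd2, a phosphatidylserine decarboxylase (13.2 FPKM treated, 46.6 FPKM untreated, -1.75 ± 0.36), and the lysophospholipase gene plb1 had 445 FPKM treated and 978 FPKM untreated (-1.13 ± 0.26).

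Some nutrient carriers other than sugar carriers also fell. Of 15 amino acid permeases 13 had a ratio below 0, and 3 fell and none rose (20.0%, against 9.15% of all coding genes). The list median was -0.30 relative to all coding genes, -0.20 against genes of like length and -0.12 against genes of like level. The 3 falls were isp5 (1.80 FPKM treated, 9.32 FPKM untreated, -1.88 ± 0.67, q = 0.0233 in the authors' deposited table), put4, a proline carrier (-1.17 ± 0.37, q = 0.00447 in the authors' deposited table), and the arginine and lysine carrier cat1 (-0.42 ± 0.20, q = 0.0274 in the authors' deposited table). SPCPB1C11.02, also an amino acid permease but named by the rule for large changes, had 4.33 FPKM treated and 21.1 FPKM untreated (-2.06 ± 0.26). Among 38 ion transport genes 4 fell, 10.8% of those tested and near the background of 9.15%, and the median was -0.03. They were the phosphate carrier SPAC23D3.12 (21.1 FPKM treated, 77.3 FPKM untreated, -1.83 ± 0.22), the ammonium carrier amt1 (-1.02 ± 0.26), the phosphate carrier pho84 (-0.67 ± 0.22) and the kinase gene hal4, which regulates potassium uptake (-0.46 ± 0.21, q = 0.0201 in the authors' deposited table). The sulfate carrier SPAC869.05c had 4.10 FPKM treated and 13.6 FPKM untreated (-1.51 ± 0.25).

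The largest losses in FPKM were of abundant genes. SPCC417.16, listed by RefSeq as a subunit of NADH:ubiquinone reductase, had 1293 FPKM treated and 1870 FPKM untreated (-0.53 ± 0.24, q = 0.0116 in the authors' deposited table). The surface protein gene SPCC1322.10 (Knh2) had a ratio of -0.70 ± 0.25. SPBC1E8.05 (knh4) had 279.8 FPKM treated and 611 FPKM untreated (-1.12 ± 0.23). The hexose carrier gene ght8 had 138 FPKM treated and 364 FPKM untreated (-1.39 ± 0.23). With ght5, plb1, gas1, adg1 and asl1, an O-glucosyl hydrolase gene (-0.72 ± 0.24), these make 9 of the 10 largest losses, and gdh1 is the other.

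Pathways that make amino acids showed few calls. None of 18 arginine and lysine genes was called (ratios from -0.19 to 0.35), and of 38 genes for other amino acids the glutamate dehydrogenase gene gdh1 alone fell, with 340.2 FPKM treated and 475 FPKM untreated (-0.48 ± 0.24, q = 0.0297 in the authors' deposited table). In sulfur metabolism met16, which reduces activated sulfate, rose to 244 FPKM in treated cells, against 139.7 FPKM untreated (0.80 ± 0.28), while met9, of the methyl group supply, fell (-0.50 ± 0.20, q = 0.00217 in the authors' deposited table). Of 22 genes of the tricarboxylic acid cycle none was called, with ratios from -0.12 to 0.31. Of 70 mitochondrial ribosomal proteins none was called either, with a median of -0.12 and 47 ratios below 0. A gene that was not called is not thereby shown to be unchanged.

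**Figure D3:**
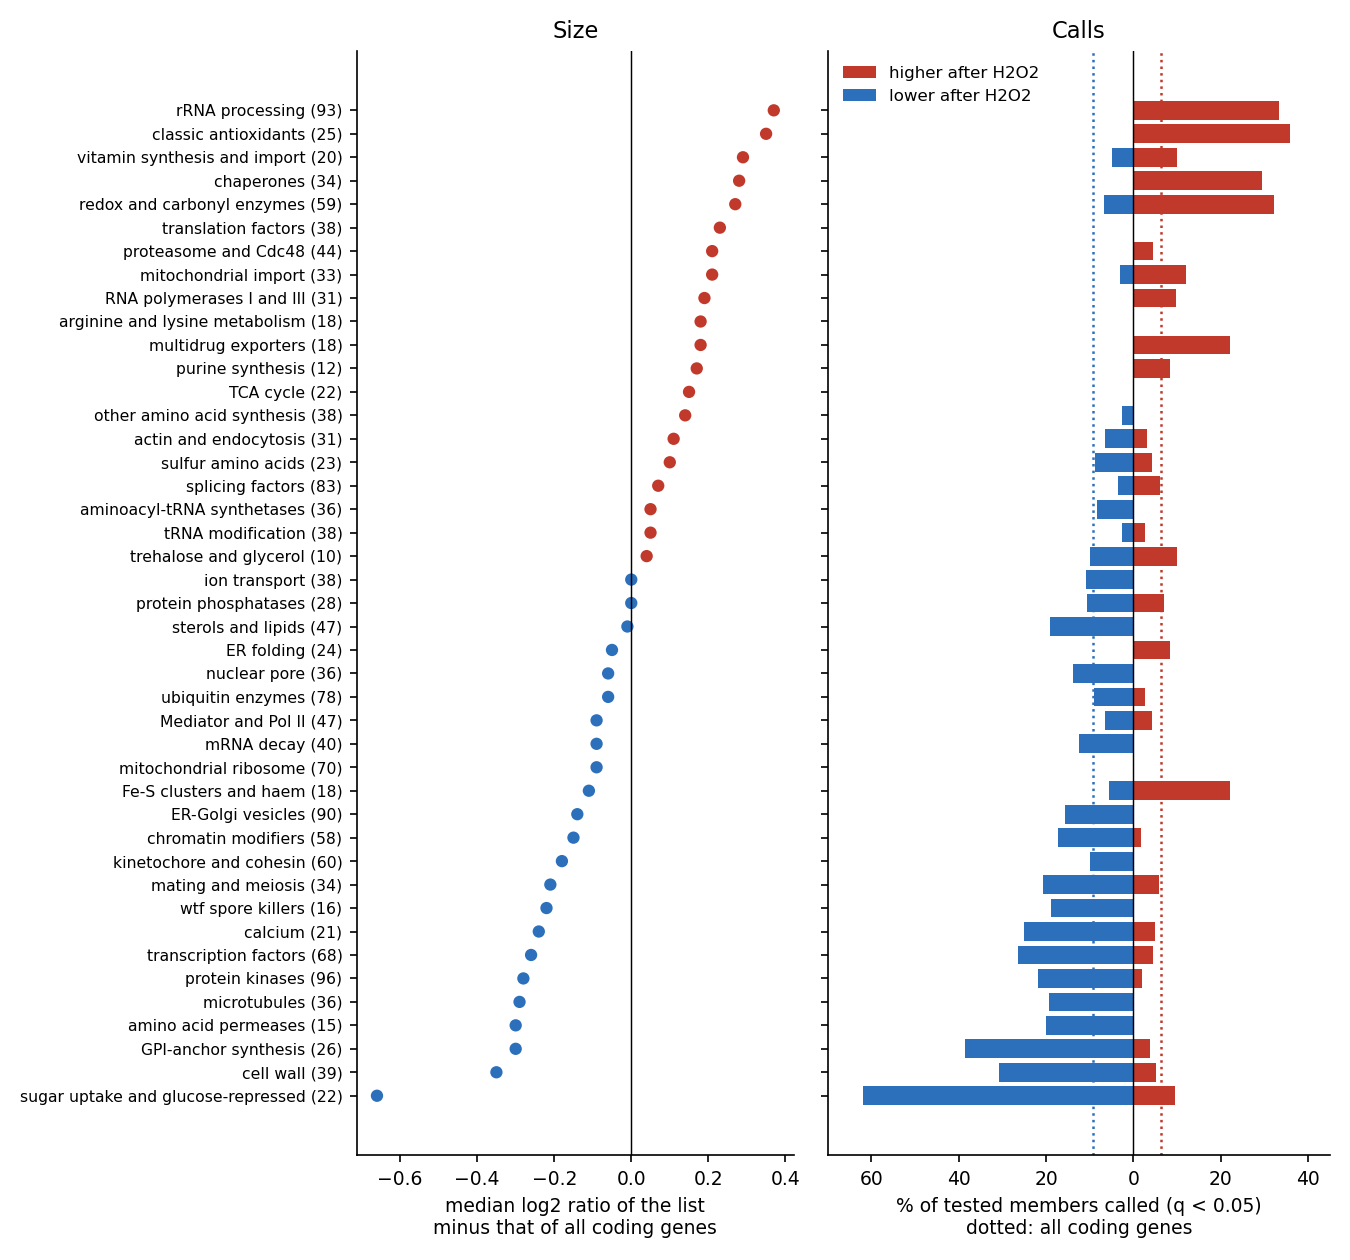
Gene lists with at least 10 measured members (number in brackets), ordered by the median log2 ratio of the list minus that of all coding genes (left panel), and the percentage of tested members called higher (red) or lower (blue) after H2O2 in wild type (right panel). Dotted lines are the shares over all coding genes, 6.45% higher and 9.15% lower. Sugar uptake and glucose-repressed genes have the lowest median, -0.66 relative to all coding genes, and rRNA processing genes the highest, 0.37.

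Microtubule genes showed 7 falls and no rise among 36 (19.4%), led by mto2, which helps to nucleate microtubules in the cytoplasm (16.2 FPKM treated, 37.1 FPKM untreated, -1.15 ± 0.24), and alp7 (-1.05 ± 0.26). Actin and endocytosis genes had 1 rise and 2 falls among 31 (3.23% and 6.45%) and a median of 0.08, and the difference between the lists was not tested.

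Regulators of gene expression and signalling made up many of the remaining falls. Of the 96 measured members of the protein kinase list 21 fell and 2 rose (21.9% and 2.08%), with a median of -0.31. The list does not hold every kinase gene. The kinase gene rio1, which rose and is given above with the rRNA processing genes, is outside it. The eIF2 alpha kinase gene hri1, whose product lowers translation under stress, had 5.73 FPKM treated and 19.5 FPKM untreated (-1.60 ± 0.25). The calmodulin-dependent kinase gene cmk1 had 25.9 FPKM treated and 68.8 FPKM untreated (-1.38 ± 0.23), and mcs6, the kinase that activates cyclin-dependent kinases, had 37.6 FPKM treated and 78.5 FPKM untreated (-1.04 ± 0.23). The kinase of unknown role ppk8 was among the 2 list members that rose, with 30.5 FPKM treated and 15.7 FPKM untreated (0.92 ± 0.34, q = 0.00393 in the authors' deposited table).

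Of 68 transcription factors 18 fell and 3 rose (26.5% and 4.41%), with a median of -0.29. The sexual differentiation factor gene ste11 had 3.64 FPKM treated and 20.1 FPKM untreated (-2.19 ± 0.23). The calcineurin-responsive factor gene prz1 had 14 FPKM treated and 58.8 FPKM untreated (-1.99 ± 0.27). The MADS-box factor mbx1 (-1.39 ± 0.38), the glucose repressor scr1 (-1.17 ± 0.25) and adn3 (-0.94 ± 0.23) also fell. The largest rise was that of rep1, an activator of MBF, the factor of G1/S genes, with 5.83 FPKM treated and 1.92 FPKM untreated (1.23 ± 0.41, q = 0.0107 in the authors' deposited table).

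Calcium genes held 5 falls and 1 rise among 21 members, of which 20 were tested, with a median of -0.28. The share of falls was above the background of 9.15%, and that of rises was below the background of 6.45%. These differences from the background were not tested. Beside prz1 and cmk1 the falls were the channel gene pkd2 (22.3 FPKM treated, 37.2 FPKM untreated, -0.72 ± 0.21), the calcium sensor gene ncs1 (-0.63 ± 0.21) and pik1, a lipid kinase of the Golgi (-0.41 ± 0.21, q = 0.0396 in the authors' deposited table). The rise was that of calnexin, given above with the ER genes. Outside the list, rsn1, named by RefSeq as a calcium transporter, had 2.16 FPKM treated and 9.35 FPKM untreated (-1.71 ± 0.32).

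Chromatin, nuclear transport, mRNA decay and secretion genes had more falls than rises, with smaller ratios. Set against genes of like length, the list medians were -0.04 for chromatin modifiers, 0.08 for nuclear pore genes, 0.01 for mRNA decay genes and -0.11 for ER to Golgi genes. Among 58 chromatin modifiers 10 fell and 1 rose (17.2% and 1.72%), led by snf5 of the SWI/SNF remodelling complex (12.6 FPKM treated, 24 FPKM untreated, -0.88 ± 0.25). Among 36 nuclear pore and transport genes 5 fell and none rose (13.9% against a background of 9.15%), from cut11 (-0.62 ± 0.24, q = 0.00393 in the authors' deposited table) to nup184 (-0.44 ± 0.20, q = 0.0184 in the authors' deposited table). Among 40 mRNA decay genes 5 fell and none rose (12.5% against a background of 9.15%). The falls included not1 and ccr4 of the deadenylase complex (-0.47 and -0.50, q = 0.00698 and 0.0497 in the authors' deposited table) and lsm2 (-0.85 ± 0.25). Among 90 genes of ER to Golgi traffic 14 fell and none rose (15.6%), with the cargo protein SPAC24B11.08c (Erv46) lowest at 26.7 FPKM treated and 65.1 FPKM untreated (-1.25 ± 0.30). Kinetochore and cohesin genes had 6 falls and no rise among 60, a share near the background of 9.15%. Ubiquitin enzymes had 7 falls and 2 rises among 78 (8.97% and 2.56%). Their share of falls was also near the background, and that of rises was below the background of 6.45%.

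Mating and meiosis genes, most of them barely expressed in growing cells, had 7 falls and 2 rises among 34. These are 20.6% and 5.88%, against 9.15% and 6.45% of all coding genes. The median of the list was -0.24, and -0.08 when set against genes of like level. In the pools labelled ∆wee1 the median ratio was 0.0. Beside ste11 the falls included isp7 (-1.55 ± 0.24), gpa1, the pheromone G protein (-1.23 ± 0.53, q = 0.0297 in the authors' deposited table), ste7 (-1.15 ± 0.27) and mei2 (3.37 FPKM treated, 7.13 FPKM untreated, -0.90 ± 0.24). Of 16 wtf genes, selfish spore killers present in near-identical copies, 3 fell and none rose (18.8%). Their FPKM values depend on how the authors assigned reads shared between copies, so those values are uncertain. The same holds for the paired ribosomal protein genes rpl4101 and rpl4102.

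Direction went with gene length and with level across the whole coding set. In the shortest quintile of genes (median 900.5 bases) 8.94% rose and 2.64% fell, with a median ratio of 0.19. In the longest quintile (median 3775 bases) 3.96% rose and 14.3% fell, with a median of -0.17. By level, 3.10% rose and 10.4% fell in the lowest quintile, against 12.2% and 2.22% in the highest quintile. Across genes, the ratio had a Spearman correlation of -0.31 with gene length and 0.35 with mean level, and length and level had one of -0.44 with each other. The longest quintile had a median of -0.15 and the shortest 0.08 in the pools labelled ∆wee1.

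Gene lists differed in length and level as well. Kinases had a median length of 2637 bases and a median level of 20.2 FPKM, and transcription factors 3008 bases and 19.8 FPKM, against 1921 bases and 36.5 FPKM over all coding genes. Set against the genes of their own length quintile, the list medians became -0.17 for kinases and -0.12 for transcription factors. Against their own level quintile they became -0.15 and -0.14. The medians of sugar genes (-0.61 by length, -0.74 by level), cell wall genes (-0.28 and -0.33), GPI-anchor genes (-0.33 and -0.22) and rRNA processing genes (0.44 by both) stayed farther from 0. The part of RNA integrity or fragment length in this trend was not tested.

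**Figure D4:**
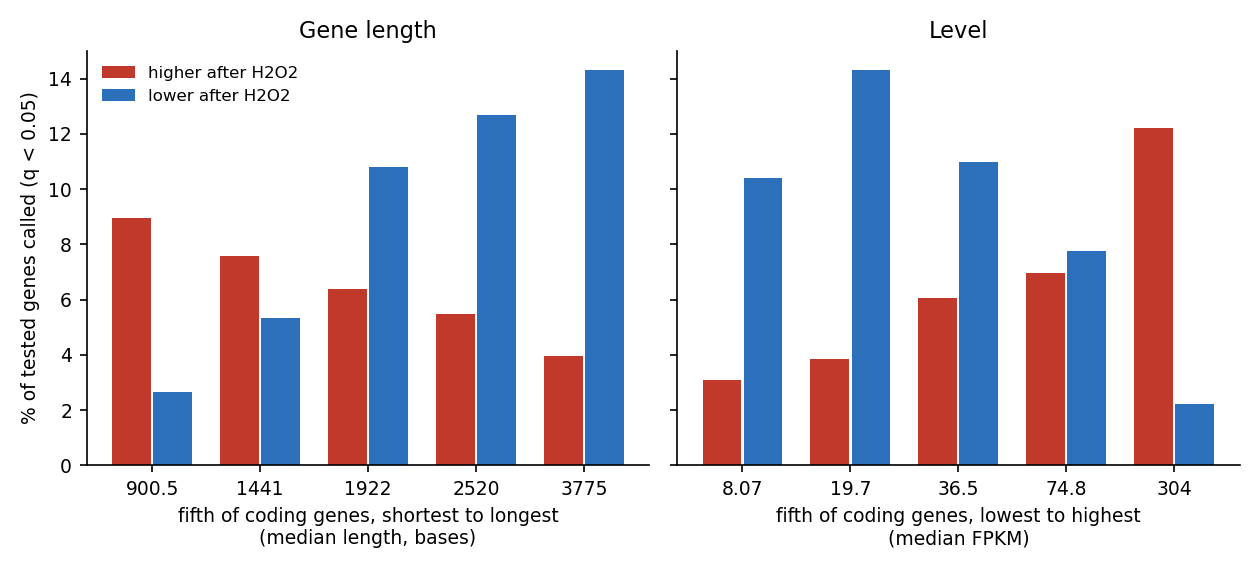
Percentage of tested coding genes called higher (red) or lower (blue) after H2O2 in wild type, by quintile of gene length (left panel, median length in bases under each pair of bars) and by quintile of mean wild-type level (right panel, median FPKM). Falls go from 2.64% in the shortest quintile to 14.3% in the longest, and rises from 3.10% in the lowest level quintile to 12.2% in the highest.

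Whether a gene could be called also depended on its neighbours. Of the 4949 coding genes, 3235 (65.4%) share a locus with another gene in the authors' deposited table, and 10.1% of these were called, against 26% of genes alone in their locus. The median standard error was 0.34 for genes that share a locus and 0.22 for those that do not. Of the 25 largest rises 11 were alone in their locus, and of the 25 largest falls 7. The largest fall, SPCC737.04, lies in a locus of 5 genes. Of 22 genes with more than a 4-fold ratio that were not called, 20 share a locus. Some of these are listed at or near 0 in one pool although the cell needs them, such as the histone chaperone gene spt16, named after its values were seen, at 0 FPKM treated and 3.26 FPKM untreated (listed at 0 and 2.84 FPKM in the pools labelled ∆wee1). Such values may be failed estimates, and no fold is given for them. The library kit keeps strand, but the strand setting of the counting is not given, so reads of overlapping genes may be mixed.

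By position, falls made up 18.4% of tested genes within 100 kb of the outermost genes of chromosome I and 16.1% on chromosome II, against 9.26% and 8.28% elsewhere on them. Those end regions held 43 and 38 measured genes, with 7 and 5 falls, and their median levels were 6.74 and 9.70 FPKM. On chromosome III the outer 100 kb had 7.59% falls and 12.7% rises, from 6 and 10 genes, at a median level of 34.7 FPKM. Differences between the ends were not tested, and the part of level in them was not tested.

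The pools labelled ∆wee1, which have no library in common with wild type, shared part of the wild-type calls. There 264 coding genes were called higher (5.35%) and 239 lower (4.84%) after H2O2. Of the wild-type rises, 178 were also called higher, which is 56.0% of the wild-type and 67.4% of the other list. Of the wild-type falls, 193 were also called lower, 42.8% and 80.8% of the lists. The ratio had the same sign in 313 of the 318 rises and 447 of the 451 falls. The rRNA share was higher after H2O2 in wild type and lower after H2O2 in the other strain, and its part in the ratios was not tested. In wild type the median ratio was 0.75 over the rises and -0.69 over the falls, against 0.55 and -0.43 in the other strain. Since these genes were chosen for passing in wild type, a larger size there is built into the choice.

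**Figure D5:**
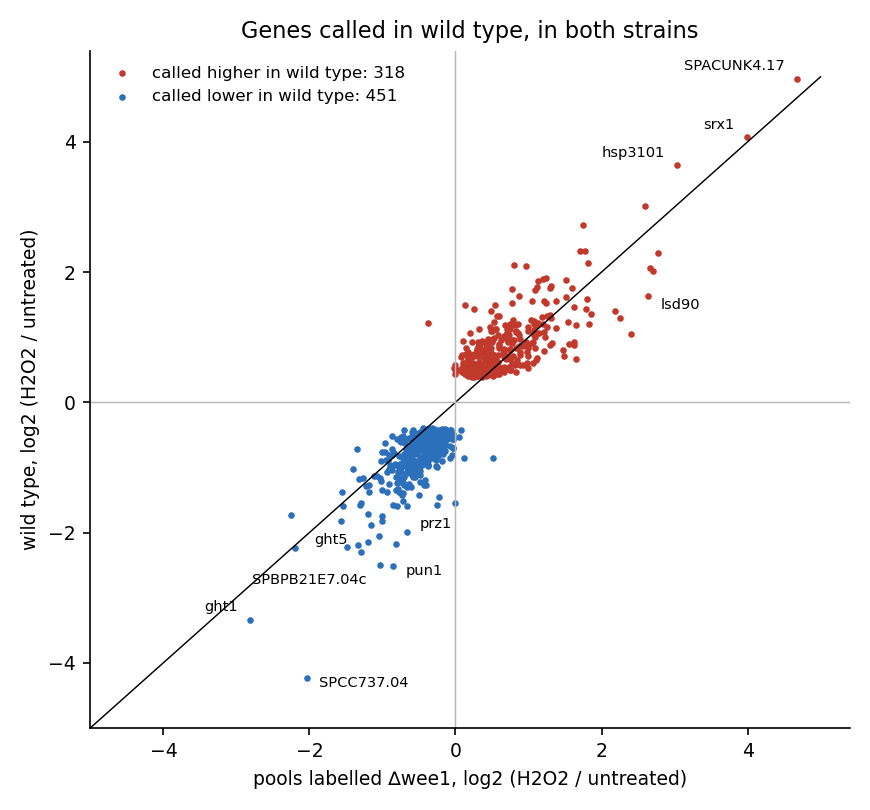
Log2 ratio of treated over untreated FPKM + 1 in wild type (vertical axis) against the pools labelled ∆wee1 (horizontal axis) for the 318 coding genes called higher (red) and the 451 called lower (blue) in wild type, with the line of equal ratio. All but 9 points have the same sign in both strains, and SPBPB21E7.04c, pun1 and prz1 lie below the line, with more negative ratios in wild type.

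The difference of responses was tested for each gene with a normal z test on the errors of the authors' deposited table, adjusted by Benjamini-Hochberg over 6133 genes. Of these 20 passed at an adjusted p under 0.05 (0.326%), 3 of them coding genes, of which 2 were called in wild type. These 2 were the methyltransferase gene SPBPB21E7.04c and the transcription factor gene SPAC2H10.01, the second named after its values were seen. Among genes with large ratios that did not pass, pun1 had -2.52 ± 0.37 in wild type and -0.86 in the mutant pools, and prz1 -1.99 ± 0.27 and -0.66. The robust SD of the z values was 0.452 rather than 1, so the errors are wide, and failing this test shows no likeness between the strains.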

How the data were processed

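RNA of 8 libraries in 4 groups was sequenced with a stranded mRNA kit, per the labels' protocols. The authors used cutadapt, HISAT2 and Cuffdiff, per the submitters' processing notes. No source used here gives versions, the genome build, the annotation or the strand setting. The authors deposited FPKM values, 1 per gene and group. The authors' deposited table adds, per the file headers, for each of 6 pairs of groups, p-values and q-values (adjusted over all pairs) beside the log2 fold change and the score that tests it. Its lowest p-value is 5e-05. The files' gene ends matched RefSeq ASM294v3 in 99.5% of coding genes, and RefSeq starts lay a median of 42 bases inside theirs, so promoter windows follow RefSeq.

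Ratios were taken as log2 of FPKM plus a pseudocount of 1, a scale on which changes of low genes look smaller than they are. Fold change over statistic gave the standard error, solved to 1 variance per group and scaled to the pseudocount. Per-library values were not used, so the planned limma fit was replaced by the authors' calls. Scripts were tested on simulated data (Python 3.11.15, pandas 2.3.3, numpy 2.4.6, scipy 1.17.1, matplotlib 3.10.9).

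Members, gene lists (46) and naming rule were chosen with earlier results of these data known. Of called genes with at least 5 FPKM in the higher pool, named ones are the 25 largest rises and falls outside the classic antioxidant list, the 10 largest gains and losses in FPKM, and up to 6 per list (3 further members where fewer than 3 were called). List members whose symbol belongs to another gene were taken out after values were seen. Lists share members. Some results are not reported here.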

Additional observations from a re-analysis of the deposited data

Results flagged for a closer look

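The H2O2 response of SPAC2H10.01, which RefSeq names a transcription factor, differed between the strains. It had 37.4 FPKM treated and 68.8 FPKM untreated in wild type (-0.86 ± 0.21), against 61.6 FPKM treated and 42.9 FPKM untreated in the pools labelled ∆wee1 (0.51 ± 0.21). The difference, wild type minus the other pools, was -1.37 ± 0.29 on the log2 scale (adjusted p = 0.000977, normal z test with errors from the authors' deposited table, 2 libraries a pool). It was the only coding gene called lower in wild type and higher in the other strain in the authors' deposited table, and it overlaps no other gene.

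SPBPB21E7.04c, a catechol O-methyltransferase gene, fell in both strains and by more in wild type. It had 9.69 FPKM treated and 59.7 FPKM untreated in wild type, against 95.5 FPKM treated and 197 FPKM untreated in the pools labelled ∆wee1. The difference of the responses was -1.47 ± 0.36 (adjusted p = 0.0142, the same test), and its levels differ between the strains before treatment as well.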

How the results depend on the processing

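The counts of called coding genes were 318 up and 451 down. With a 2-fold minimum added they were 95 and 86, with a 2-fold minimum and no q-value 137 and 111, with a q-value under 0.01 they were 223 and 271, and over genes alone in their locus 173 and 270. A level filter of 5 FPKM and no filter moved neither count by as much as 1.5 times. Every direction of a named gene that the authors' deposited table calls was the same with pseudocounts of 0.1 and 5, with coding FPKM scaled to one total and with quantile normalization. Scaling coding FPKM to one total moved the median of all coding genes to -0.27, so list medians are compared relative to that median. Relative to it, 6 lists changed sign under quantile normalization: sulfur amino acids (-0.07), other amino acid synthesis (-0.05), purine synthesis (-0.01), translation factors (-0.02), the TCA cycle (-0.07) and actin (-0.01). Set against the fifth of like level, an alternative added after seeing the data, sulfur amino acids had -0.03, other amino acid synthesis -0.06, translation factors -0.01, the TCA cycle -0.07, actin 0.0 and the proteasome -0.01. Iron-sulfur and haem genes had 0.19 over genes alone in their locus and 0.0 against the fifth of like length, also added after seeing the data. The cause was not tested. No paired analysis was possible because the files give 1 pooled value per group, and leaving out single replicates was not run for the same reason. Depth is unknown, so no detection limit is given.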
